A study of Mus musculus with 4 samples.

Results

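The genes described here are 34 genes of glycolysis and of the hypoxia response, picked by symbol from the 45773 genes kept in each table. Of these, 22 are glycolytic: 4 transporters of glucose and lactate, 15 enzymes and 3 regulators of flux. The other 12 are further genes of the response to hypoxia-inducible factor (HIF). All 34 were found, and 33 averaged 1 TPM or more across libraries and are called measured. Only Pfkfb4 did not.

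The study used SMART-seq, which amplifies full-length cDNA from little RNA, on CD8 T cells taken from MC38 colon carcinomas in mice. In the gain experiment, PmelI T cells, whose transgenic receptor sees the melanocyte antigen gp100, were transduced with Klf4 or with the empty retroviral vector MigRI, given on day 7 to Rag2 KO hosts bearing MC38-gp100 tumours, and recovered as GFP+ cells on day 15. In the loss experiment, PD1+ CD8+ cells were recovered on day 14 from MC38 tumours of mice labelled Klf4 cKO and of control (WT) mice. Rag2 KO hosts make no T or B cells of their own, while the hosts of the loss experiment have their own lymphocytes. The Cre line, the deleted part of Klf4, the ages of the mice and any pooling of animals were not stated in the labels used here. With a single library in each of the 4 groups, differences have no replicate check, spread or p-value.

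Glycolysis splits glucose into pyruvate through a chain of cytosolic enzymes, and lactate dehydrogenase and a lactate exporter let the chain run when mitochondria do not take up the pyruvate. Activated CD8 T cells are known for raising glucose uptake and glycolysis. In low oxygen the prolyl hydroxylases stop marking HIF-1 alpha for destruction, and the stabilised factor binds DNA at the core letters ACGTG or GCGTG and raises many glycolytic genes with genes for angiogenesis, mitophagy and collagen hydroxylation.

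Levels are in TPM, a share of the library's transcripts corrected for length. TPM carries no read depth, and its counting error is unknown. Differences were taken on the log2(TPM + 1) scale, where changes of low genes come out too small. Across the 12570 measured genes the median gene differed by 0.79 log2 between Klf4-transduced and MigRI, and by 0.74 log2 between Klf4 cKO-labelled and control. A relative difference has that median taken off, and those of 1 log2 (2-fold) or more in size were called. A log2 value that follows a pair of levels is the relative difference of that pair unless it is given as deposited.

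The stretches just upstream of a RefSeq start are shown for 6 of these genes, which mark the ends of what follows. Slc16a3 had the highest difference in the gain experiment, and Hk2 was lower in the Klf4 cKO-labelled library. Ldha, Pgk1, Bnip3 and Egln3 are known HIF targets from different steps. All 6 genes were picked after their values were seen. Sequences are from RefSeq, build GRCm38.p6, 5′ to 3′ on the gene's strand. Each runs over the 250 bases before the annotated RefSeq start, or ends earlier where a GENCODE exon begins. Those of Slc16a3 and Ldha lie inside the gene as GENCODE places it, after its outermost start. Capitals mark ACGTG on either strand. The other core, GCGTG, was neither marked nor counted. The 14 bases left off Slc16a3 before its start hold another ACGTG, which is not shown. Where CACGTG stands, the motif reads on both strands, and the same letters are an E-box.
Slc16a3, chr11:120948817-120949052, plus strand: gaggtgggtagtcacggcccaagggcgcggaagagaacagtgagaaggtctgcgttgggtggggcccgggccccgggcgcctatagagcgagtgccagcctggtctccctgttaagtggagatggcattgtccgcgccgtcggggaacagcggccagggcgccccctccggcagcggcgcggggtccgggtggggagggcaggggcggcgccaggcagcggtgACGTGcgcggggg
Ldha, chr7:46845554-46845803, plus strand: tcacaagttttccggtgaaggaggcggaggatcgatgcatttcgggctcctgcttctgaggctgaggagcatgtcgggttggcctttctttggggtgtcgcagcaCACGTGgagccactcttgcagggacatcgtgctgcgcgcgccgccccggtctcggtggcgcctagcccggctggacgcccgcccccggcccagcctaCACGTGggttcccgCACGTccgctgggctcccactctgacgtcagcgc
Pgk1, chrX:106186850-106187099, plus strand: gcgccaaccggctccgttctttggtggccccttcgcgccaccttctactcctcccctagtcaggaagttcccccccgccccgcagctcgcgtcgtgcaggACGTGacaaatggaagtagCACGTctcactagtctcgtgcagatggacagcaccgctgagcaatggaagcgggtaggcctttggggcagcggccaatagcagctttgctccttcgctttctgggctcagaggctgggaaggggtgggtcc
Bnip3, chr7:138909520-138909756, minus strand: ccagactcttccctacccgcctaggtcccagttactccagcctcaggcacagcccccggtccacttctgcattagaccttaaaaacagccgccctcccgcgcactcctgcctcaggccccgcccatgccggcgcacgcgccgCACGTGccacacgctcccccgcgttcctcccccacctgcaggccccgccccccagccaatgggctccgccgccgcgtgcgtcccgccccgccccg
Egln3, chr12:54203875-54204124, minus strand: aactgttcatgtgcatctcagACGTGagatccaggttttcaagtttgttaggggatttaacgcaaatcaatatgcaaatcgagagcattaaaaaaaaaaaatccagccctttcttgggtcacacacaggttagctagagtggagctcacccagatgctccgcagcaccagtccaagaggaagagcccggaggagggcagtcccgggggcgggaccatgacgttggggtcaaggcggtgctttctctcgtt
Hk2, chr6:82774455-82774704, minus strand: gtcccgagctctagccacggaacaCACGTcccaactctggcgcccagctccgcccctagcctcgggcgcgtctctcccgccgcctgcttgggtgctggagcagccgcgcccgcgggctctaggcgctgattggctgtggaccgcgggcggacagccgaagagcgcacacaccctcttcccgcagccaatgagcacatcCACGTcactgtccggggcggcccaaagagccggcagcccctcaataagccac

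Windows of 250 bases before the start were found for 31 of the 34 genes. Slc2a3, Bnip3l and Ndrg1 had no entry. ACGTG on either strand was in at least 1 window of 19 of these 31 genes (61.3%), against 25.1% of 8778 measured genes and 18.5% of all 27025 genes in the table. By window, it was in 23 of 47 windows (48.9%), against 16.6% of all 32851. It was found for 11 of 21 glycolytic genes and for 8 of 10 other HIF-response genes. CACGTG was found for 6 of the 31 genes and for 9.60% of measured genes. Hk2 carried 2 matches. The match is a description of letters, and the genes had been listed as known HIF targets.

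Markers of the labelled cell type and of other tumour cells moved with the libraries. In bulk samples, fewer cells of a type and less RNA per cell cannot be told apart. The 15 T cell markers summed to 5941 TPM with Klf4 and 25195 TPM in MigRI, and 14 of 15 were called lower. In the loss experiment they summed to 19118 TPM in the Klf4 cKO-labelled library and 8209 TPM in control, with 6 of 15 called higher and 2 lower. The 15 macrophage and monocyte markers summed to 7715 TPM with Klf4 and 1818 TPM in MigRI (ratio 4.24, 11 of 14 measured called higher), and to 2100 TPM in the Klf4 cKO-labelled library and 593 TPM in control (ratio 3.54, 8 of 14 called higher). The summed TPM of the 15 glycolytic enzymes had ratios of 3.85 and 4.62 in the same comparisons.

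The 12 fibroblast and endothelium markers summed to 1398 TPM with Klf4 and 145 TPM in MigRI, with 8 of 9 measured called higher and 1 lower, and to 254 TPM in the Klf4 cKO-labelled library and 31.0 TPM in control, with 3 of 9 higher. Lyz2, the lysozyme of myeloid cells, was at 1423 TPM with Klf4 and 344 TPM in MigRI, and at 256 TPM in the Klf4 cKO-labelled library and 52.5 TPM in control. Mast cell markers summed to 95.8 TPM with Klf4 and 1.91 TPM in MigRI, and to 64.3 TPM in the Klf4 cKO-labelled library and 0.278 TPM in control, with Ms4a2 listed at 0 in all 4. Neutrophil markers summed to 113 TPM with Klf4 and 28.6 TPM in MigRI, and to 3.60 TPM in the Klf4 cKO-labelled library and 29.3 TPM in control, with Camp at 0 in all 4. Epithelial tumour cell markers summed to 2.03 to 7.86 TPM, with Krt19, Krt20 and Cldn4 at 0 in all 4 libraries.

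B cell markers summed to 70.2 TPM with Klf4 and 73.5 TPM in MigRI, and to 24.4 TPM in the Klf4 cKO-labelled library and 7.05 TPM in control. Dendritic cell markers summed to 131 TPM with Klf4 and 288 TPM in MigRI, and to 129 TPM in the Klf4 cKO-labelled library and 33.2 TPM in control. Most of each sum was the single gene Ccr7, at 125, 286, 121 and 21.7 TPM in the same order. Xcr1 went the other way in the loss experiment, at 4.58 TPM in the Klf4 cKO-labelled library and 9.82 TPM in control. Erythroid markers summed to 789 TPM with Klf4 and 974 TPM in MigRI, and to at most 7.35 TPM in the loss experiment. The part of other cell types in the differences of the glycolytic and HIF-response genes was not tested. Set against the median of Trac, Trbc1 and Trbc2, the constant genes of the T cell receptor, whose own relative differences were -2.81 log2 in the gain and 1.02 log2 in the loss comparison, all 33 genes were called higher in the gain comparison, and 0 were called higher and 9 lower in the loss comparison. This centring moves all measured genes alike, so a gene at their lower quartile in the gain comparison (-0.94 log2) is called higher too. In the loss comparison the median gene itself is called lower. The shares of all measured genes called on this scale were not counted. On that scale the glycolytic medians were 3.91 and -0.19 log2 and the other HIF-response medians 4.09 and -0.81 log2. Klf4 itself was at 26.05 TPM in the Klf4-transduced library and 8.69 TPM in MigRI. That is 0.69 log2 relative to the median gene and 1.48 as deposited, so by relative difference Klf4 was not called. It was at 9.28 TPM in the Klf4 cKO-labelled library and 7.52 TPM in control, so it does not check the cKO label.

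**Figure D1:**
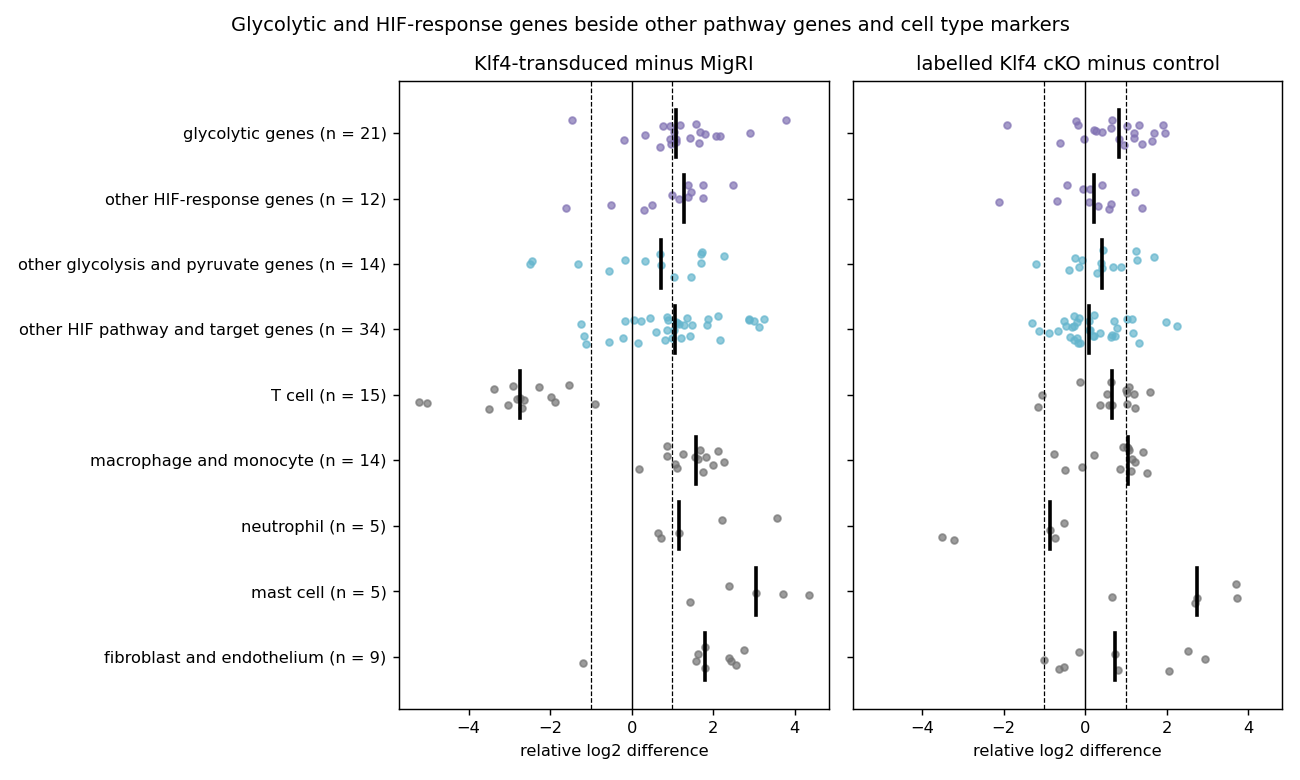
Relative differences (horizontal axis, log2) of each measured gene, with the list median as a black bar, for Klf4-transduced minus MigRI (left) and labelled Klf4 cKO minus control (right). The T cell markers lie left of 0 in the gain panel, while the glycolytic genes, the other HIF-response genes and the macrophage and fibroblast markers have medians from 1.10 to 1.80 log2 there, before any centring on receptor genes.

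Most of the 33 measured genes were higher in the Klf4-transduced library than in MigRI. By relative difference, 20 of 33 were called higher and 2 lower, where 21.4% and 23.6% of all measured genes were. As deposited, 29 were higher and 0 lower, where 43.7% and 10.3% of all measured genes were. In the loss experiment, 11 of 33 were called higher in the Klf4 cKO-labelled library by relative difference and 2 lower, against 12.4% and 16.2% of all measured genes. As deposited, 21 were higher and 2 lower, against 38.4% and 6.92%. Of all TPM, the 34 genes took 2.79% in the Klf4-transduced library, against 0.763% in MigRI, and 0.873% in the Klf4 cKO-labelled library, against 0.285% in control.

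By relative difference, the glycolytic median was 1.10 log2 (13 of 21 higher, 1 lower) and the other HIF-response median 1.28 log2 (7 of 12 higher, 1 lower) for Klf4-transduced over MigRI. For the Klf4 cKO-labelled library over control, the medians were 0.83 log2 (9 of 21 higher, 1 lower) and 0.21 log2 (2 of 12 higher, 1 lower). The median over all measured genes is 0 by construction, with quartiles of -0.94 and 0.85 in the gain and -0.62 and 0.61 in the loss comparison. As deposited, the glycolytic and other HIF-response medians were 1.89 and 2.07 log2 in the gain and 1.57 and 0.95 log2 in the loss comparison. After quantile normalization they were 2.01 and 1.04 log2 in the gain and 0.80 and 0.22 log2 in the loss comparison. The order of both gene classes in the gain comparison thus turned with the scaling. It also turned with a pseudocount of 5 (1.28 and 1.07 log2) and with a filter of 10 TPM on the mean (1.33 and 1.13 log2). With only genes of a mean of 10 TPM or more kept, 4 of the 24 genes left were called higher in the loss comparison. Its other HIF-response median was then -0.36 log2. The share of all genes called under this filter was not counted. The difference between the gene classes was not tested.

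**Figure D2:**
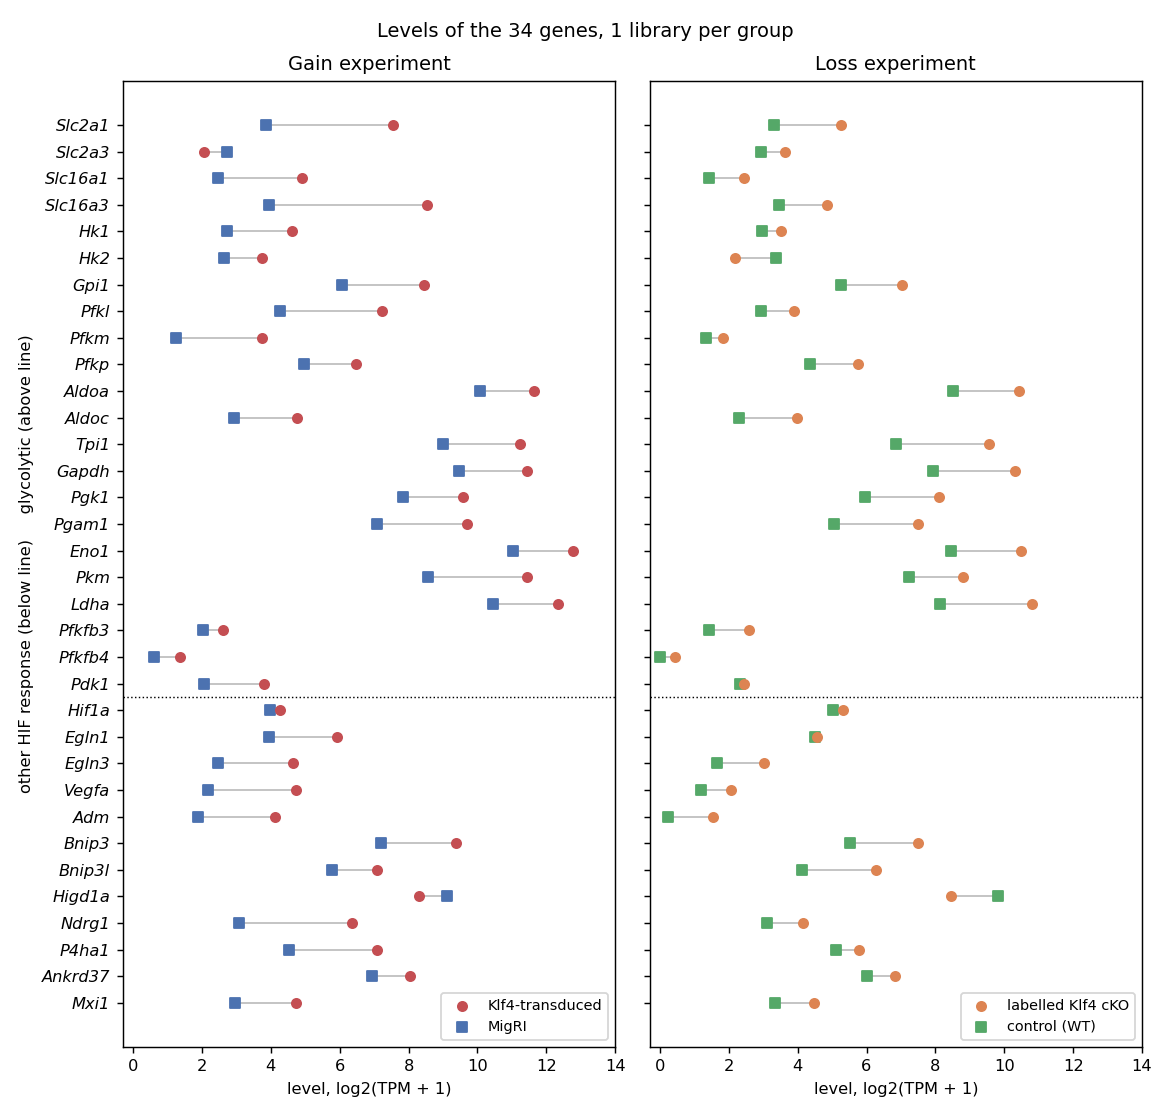
Levels of the 34 genes as log2(TPM + 1), with 1 library per point, in the gain experiment (left, Klf4-transduced as circles and MigRI as squares) and the loss experiment (right, labelled Klf4 cKO as circles and control as squares). Slc2a3 and Higd1a are the genes with circles left of squares in the gain panel, and Hk2 and Higd1a in the loss panel.

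Glucose enters through the transporters GLUT1 (Slc2a1) and GLUT3 (Slc2a3), which differed in opposite directions in the gain experiment. Slc2a1 (chr4:119108711-119137983, plus strand, GENCODE vM21 on GRCm38) was at 187 TPM in the Klf4-transduced library and 13.5 TPM in MigRI, and at 37.3 TPM in the Klf4 cKO-labelled library and 9.01 TPM in control. Its relative differences were 2.90 and 1.20 log2. Slc2a3 was at 3.18 TPM in the Klf4-transduced library and 5.60 TPM in MigRI, a relative difference of -1.45 log2. It was at 11.5 TPM in the Klf4 cKO-labelled library and 6.65 TPM in control, a relative difference of -0.03 and a deposited one of 0.71 log2. Slc2a1 thus made up 98.3% of the summed TPM of both transporters with Klf4, 70.6% in MigRI, 76.5% in the Klf4 cKO-labelled library and 57.5% in control. Such a share within a library does not depend on how libraries are scaled.

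Both lactate and pyruvate carriers were called higher in the gain comparison and not called in the loss comparison. Slc16a3, which encodes the lactate exporter MCT4 (chr11:120948480-120960868, plus strand), was at 369 TPM in the Klf4-transduced library and 14.3 TPM in MigRI. This relative difference, 3.80 log2, was the highest of the 33 genes. In the loss experiment Slc16a3 was at 28.1 TPM in the Klf4 cKO-labelled library and 10.04 TPM in control, 0.66 log2 relative to the median gene. Slc16a1, which encodes the carrier MCT1, was at 29.1 TPM with Klf4 and 4.51 TPM in MigRI, and at 4.41 TPM in the Klf4 cKO-labelled library and 1.70 TPM in control. Its relative differences were 1.66 and 0.26 log2.

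The hexokinases, which trap glucose in the cell as glucose 6-phosphate, were the lowest enzyme step. Hk1 and Hk2 together were at 35.7 TPM with Klf4, 10.8 TPM in MigRI, 14.0 TPM in the Klf4 cKO-labelled library and 16.0 TPM in control. Hk2 (chr6:82725025-82774454, minus strand), the isoform known as inducible in activated T cells, was at 12.4 TPM with Klf4 and 5.18 TPM in MigRI, 0.32 log2 relative to the median gene. It was at 3.56 TPM in the Klf4 cKO-labelled library and 9.30 TPM in control, a relative difference of -1.91 and a deposited difference of -1.17 log2. Hk2 was the only one of the 15 enzymes lower in that library as deposited. Hk1 was at 23.3 TPM with Klf4 and 5.61 TPM in MigRI, and at 10.4 TPM in the Klf4 cKO-labelled library and 6.74 TPM in control. Hk2 made up 34.8% of both with Klf4, 48.0% in MigRI, 25.5% in the Klf4 cKO-labelled library and 58.0% in control. Reads of Hk1 may include the antisense gene Hk1os, whose exons overlap it and which was at 2.35 TPM with Klf4, 4.31 TPM in MigRI, 8.55 TPM in the Klf4 cKO-labelled library and 10.96 TPM in control.

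Phosphofructokinase commits sugar to glycolysis, and its isoforms changed rank between libraries. Pfkl, the liver type, was at 149 TPM in the Klf4-transduced library and 18.3 TPM in MigRI, a relative difference of 2.16 log2. Pfkp, the platelet type, was at 87.1 TPM with Klf4 and 30.5 TPM in MigRI, 0.69 log2 relative to the median gene. Pfkl was 59.9% and Pfkp 35.1% of the summed TPM of the 3 isoforms with Klf4, while Pfkl was 36.5% and Pfkp 60.7% in MigRI. In the loss experiment Pfkp led in both libraries, with 76.2% in the Klf4 cKO-labelled library and 70.6% in control. There Pfkp was at 53.0 TPM in the Klf4 cKO-labelled library and 19.7 TPM in control, and Pfkl at 14.0 TPM in the Klf4 cKO-labelled library and 6.71 TPM in control. Pfkm, the muscle type, was at 12.3 TPM with Klf4 and 1.39 TPM in MigRI, and at 2.58 TPM in the Klf4 cKO-labelled library and 1.51 TPM in control.

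**Figure D3:**
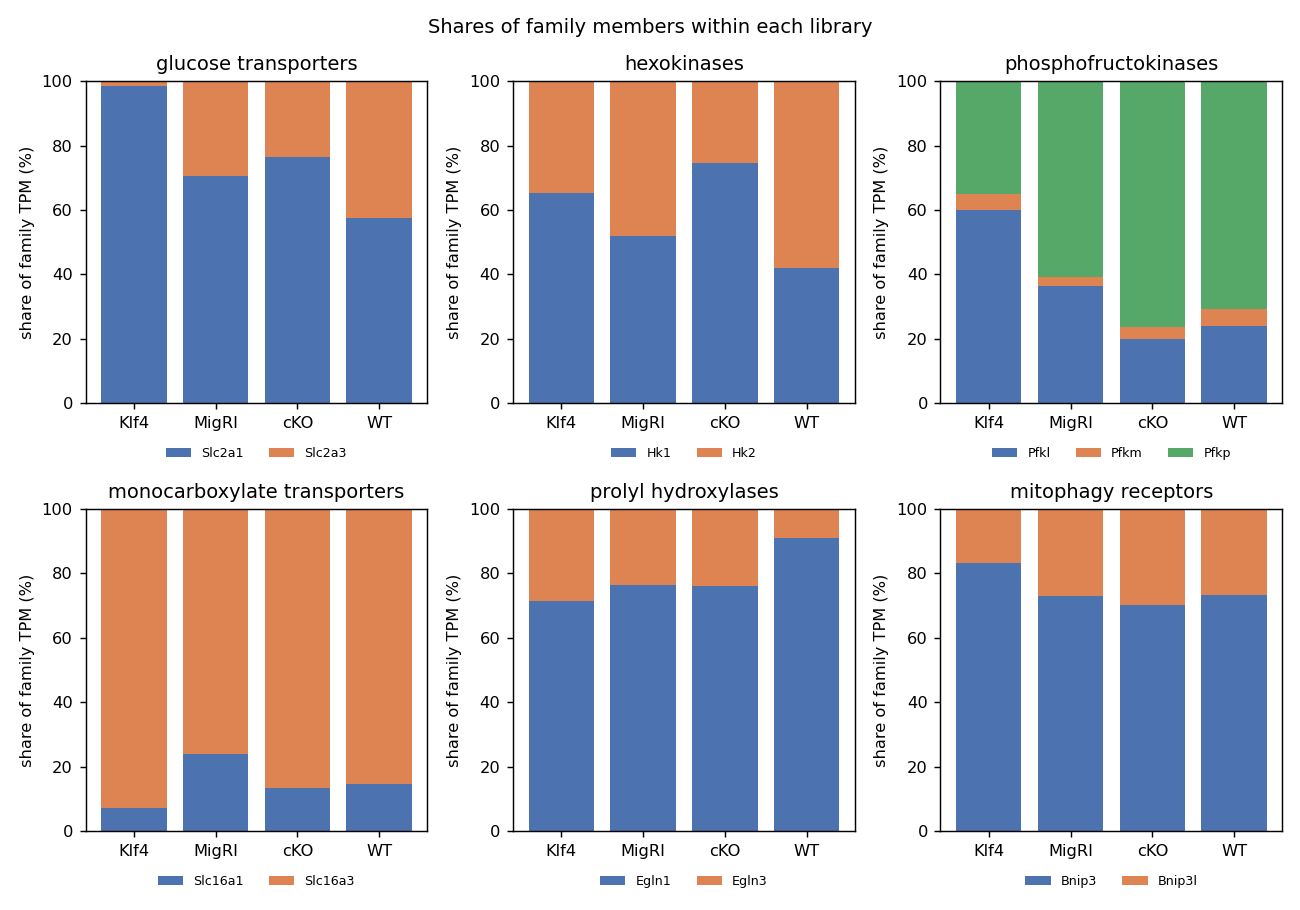
Shares of the summed TPM of each gene family (vertical axis, percent) in the 4 libraries, 1 bar per library. Slc2a1 takes 98.3% of the glucose transporter pair with Klf4 and 70.6% in MigRI, and Hk2 takes 25.5% of the hexokinase pair in the Klf4 cKO-labelled library and 58.0% in control (WT).

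The enzymes from aldolase to lactate dehydrogenase are the abundant stretch of the pathway, and all of them were higher with Klf4 than in MigRI, and in the Klf4 cKO-labelled library than in control, relative to the median gene. Eno1 (enolase) and Ldha (lactate dehydrogenase A) were the most abundant of the 34 genes in the gain experiment. Ldha (chr7:46841475-46855627, plus strand) was at 5140 TPM in the Klf4-transduced library and 1386 TPM in MigRI, and at 1781 TPM in the Klf4 cKO-labelled library and 281 TPM in control. Its relative differences were 1.10 and 1.92 log2. Eno1 was at 7027 TPM with Klf4 and 2073 TPM in MigRI, and at 1444 TPM in the Klf4 cKO-labelled library and 347 TPM in control, relative differences of 0.97 and 1.32 log2. Against the median of Trac, Trbc1 and Trbc2, the 8 steps of this stretch remained higher in the gain comparison, but Pkm and Aldoc turned lower in the loss comparison.

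Pkm (pyruvate kinase) was at 2753 TPM with Klf4 and 377 TPM in MigRI, and at 443 TPM in the Klf4 cKO-labelled library and 149 TPM in control. It had the second highest relative difference of the enzymes in the gain comparison, 2.07 log2, and 0.83 log2 in the loss comparison. Tpi1 (triosephosphate isomerase) had the highest relative difference of the 33 genes in the loss comparison, 1.97 log2, at 758 TPM in the Klf4 cKO-labelled library and 116 TPM in control. In the gain comparison it was at 2405 TPM with Klf4 and 512 TPM in MigRI, 1.44 log2. Gapdh, often taken as a housekeeping gene, was at 2785 TPM with Klf4 and 708 TPM in MigRI, 1.18 log2, and at 1270 TPM in the Klf4 cKO-labelled library and 245 TPM in control, 1.63 log2.

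Aldoa, the main aldolase, had relative differences of 0.78 and 1.19 log2, Pgk1 (phosphoglycerate kinase) 0.95 and 1.40, and Pgam1 (phosphoglycerate mutase) 1.80 and 1.68, each with the gain comparison given before the loss comparison. Aldoa was at 3211 TPM with Klf4 and 1079 TPM in MigRI, and at 1384 TPM in the Klf4 cKO-labelled library and 363 TPM in control. Pgk1 was at 761 TPM with Klf4 and 226 TPM in MigRI, and at 273 TPM in the Klf4 cKO-labelled library and 61.3 TPM in control. Aldoc, the brain-type aldolase, was at most 1.06% of the aldolase TPM in each of the 4 libraries. Gpi1 (glucose phosphate isomerase), upstream of this stretch, was at 348 TPM with Klf4 and 66.5 TPM in MigRI, 1.58 log2, and at 130 TPM in the Klf4 cKO-labelled library and 37.3 TPM in control, 1.04 log2. Pgam1 was at 822 TPM with Klf4 and 136 TPM in MigRI, and at 179 TPM in the Klf4 cKO-labelled library and 32.6 TPM in control.

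The genes were also summed by step along the pathway. In the gain comparison the highest steps were the transport steps: glucose uptake had a relative difference of 2.46 log2 and monocarboxylate transport 3.54 log2, while the 11 enzyme steps lay between 0.78 and 2.07 log2. In the loss comparison hexokinase and phosphofructokinase were the lowest enzyme steps, with -0.92 and 0.55 log2. The steps from aldolase to lactate dehydrogenase lay between 0.83 and 1.97 log2 there, and glucose uptake and monocarboxylate transport at 0.84 and 0.66 log2. The 15 enzymes together were at 25563 TPM with Klf4 and 6632 TPM in MigRI, a ratio of 3.85, and at 7760 TPM in the Klf4 cKO-labelled library and 1679 TPM in control, a ratio of 4.62.

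Several of these genes have copies in the genome, and the authors' counting could split reads between them. The copies were recognised by symbol, without comparing sequences, so copies under other names were not included. Pgam1-ps2 was at 508 TPM with Klf4, 89.6 TPM in MigRI, 114 TPM in the Klf4 cKO-labelled library and 24.6 TPM in control, 61.8% to 75.5% of the level of Pgam1. Bnip3l-ps was at 39.7% to 54.9% of Bnip3l, Pgk1-rs7 at 17.0% to 41.9% of Pgk1, and Eno1b at 11.7% to 20.9% of Eno1. Tpi-rs10, Ldha-ps2 and Pgam1-ps1 were lower, at most 30.8 TPM. With copies added to their gene, Pgk1 went to 1.17 log2 in the loss comparison, Pgam1 to 1.54 and Bnip3l to 1.54, and no gene changed its call in either comparison.

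The flux regulators were low. Pfkfb3, whose product makes the activator of phosphofructokinase, was at 5.15 TPM with Klf4 and 3.07 TPM in MigRI, and at 5.00 TPM in the Klf4 cKO-labelled library and 1.70 TPM in control, relative differences of -0.20 and 0.42 log2. Pfkfb4, of the same enzyme family, was at 1.58 TPM with Klf4 and 0.510 TPM in MigRI, and at 0.351 TPM in the Klf4 cKO-labelled library and listed at 0 in control. Pdk1, which shuts pyruvate out of the mitochondrial cycle, was at 13.0 TPM with Klf4 and 3.18 TPM in MigRI, 0.95 log2 relative to the median gene. It was at 4.48 TPM in the Klf4 cKO-labelled library and 4.02 TPM in control, a relative difference of -0.61 and a deposited one of 0.13 log2.

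**Figure D4:**
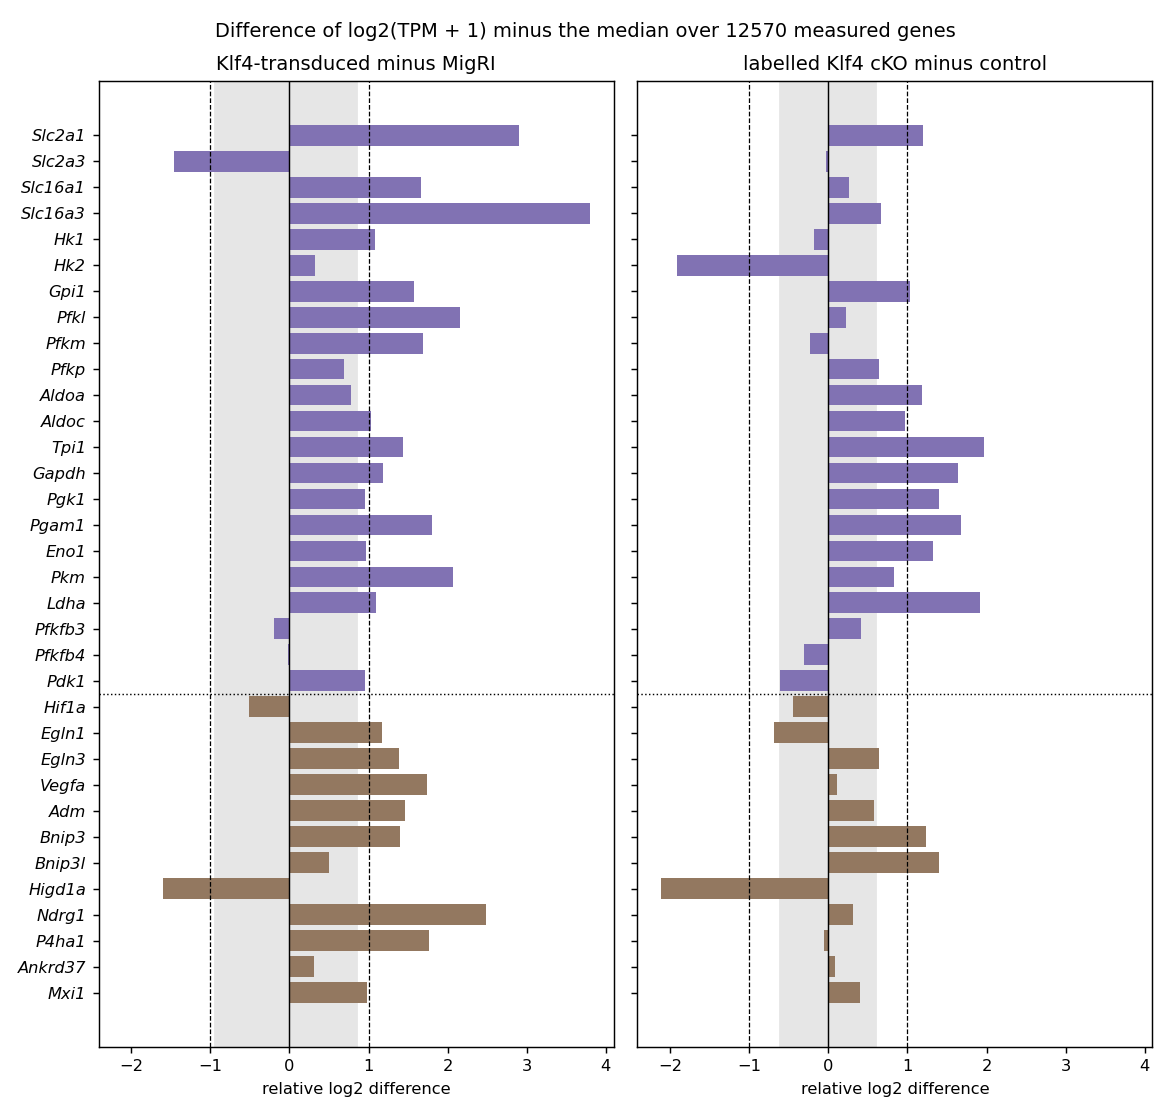
Relative differences (horizontal axis, log2, 1 library against 1) of the 34 genes for Klf4-transduced minus MigRI (left) and labelled Klf4 cKO minus control (right), with glycolytic genes in purple above the dotted line and other HIF-response genes in brown below it. Dashed lines mark 2-fold, the grey band spans the quartiles of all 12570 measured genes, and Higd1a lies left of -1 in both panels, a direction that turned in the gain comparison when set against Trac, Trbc1 and Trbc2.

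The oxygen sensors and Hif1a itself came next. Hif1a, whose product is controlled mainly through protein stability, was at 18.1 TPM with Klf4 and 14.7 TPM in MigRI, and at 39.3 TPM in the Klf4 cKO-labelled library and 31.8 TPM in control. Its relative differences were -0.51 and -0.44 log2 and its deposited ones 0.28 and 0.29 log2, so its direction turned with the scaling. Egln1, the prolyl hydroxylase PHD2, was at 59.7 TPM with Klf4 and 14.6 TPM in MigRI, 1.17 log2, and at 22.6 TPM in the Klf4 cKO-labelled library and 21.7 TPM in control, -0.68 log2 relative to the median gene and 0.06 as deposited. Egln3, the hypoxia-induced PHD3, was at 24.1 TPM with Klf4 and 4.53 TPM in MigRI, 1.39 log2, and at 7.15 TPM in the Klf4 cKO-labelled library and 2.14 TPM in control, 0.64 log2. Egln3 made up 28.7% of the pair with Klf4 and 23.7% in MigRI, and 24.0% in the Klf4 cKO-labelled library and 8.95% in control.

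Secreted factors under HIF control were low in 3 of the libraries. Vegfa, the angiogenic growth factor, was at 25.4 TPM with Klf4 and 3.55 TPM in MigRI, 1.74 log2, and at 3.15 TPM in the Klf4 cKO-labelled library and 1.30 TPM in control, 0.11 log2. Adm, which encodes the vasodilator peptide adrenomedullin, was at 16.4 TPM with Klf4 and 2.66 TPM in MigRI, 1.45 log2, and at 1.91 TPM in the Klf4 cKO-labelled library and 0.171 TPM in control, 0.58 log2. Adm was the lowest measured gene of the 34 in control.

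The mitochondrial genes of the response went in both directions. Bnip3 (chr7:138890836-138909519, minus strand), a mitophagy receptor, was at 663 TPM with Klf4 and 145 TPM in MigRI, and at 180 TPM in the Klf4 cKO-labelled library and 45.2 TPM in control. Its relative differences were 1.39 and 1.23 log2. Its paralog Bnip3l was at 134 TPM with Klf4 and 53.9 TPM in MigRI, 0.50 log2, and at 75.9 TPM in the Klf4 cKO-labelled library and 16.4 TPM in control, 1.40 log2. Higd1a (chr9:121848563-121858362, minus strand), a small inner membrane protein of the respiratory chain, was lower in both comparisons. It was at 316 TPM with Klf4 and 555 TPM in MigRI, -1.60 log2 relative and -0.81 as deposited, and at 346 TPM in the Klf4 cKO-labelled library and 902 TPM in control, -2.12 relative and -1.38 as deposited. With Trac, Trbc1 and Trbc2 as the zero point, the gain value of Higd1a turned to 1.21 log2 and that of Slc2a3 to 1.36 log2.

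Of the 4 remaining HIF targets, Ndrg1 and P4ha1 were called higher in the gain comparison and none was called in the loss comparison. Ndrg1, a stress-response gene, was at 80.3 TPM with Klf4 and 7.37 TPM in MigRI, 2.49 log2, and at 16.7 TPM in the Klf4 cKO-labelled library and 7.56 TPM in control, 0.31 log2. P4ha1, a subunit of the collagen prolyl hydroxylase, was at 135 TPM with Klf4 and 22.1 TPM in MigRI, 1.76 log2, and at 54.2 TPM in the Klf4 cKO-labelled library and 33.3 TPM in control, -0.05 log2. Mxi1, a Max partner that opposes Myc, was at 25.4 TPM with Klf4 and 6.73 TPM in MigRI, 0.98 log2, and at 21.2 TPM in the Klf4 cKO-labelled library and 9.05 TPM in control, 0.41 log2. Ankrd37, an ankyrin repeat gene, was at 261 TPM with Klf4 and 121 TPM in MigRI, 0.31 log2, and at 114 TPM in the Klf4 cKO-labelled library and 63.6 TPM in control, 0.09 log2. Exons of Ankrd37 overlap those of Ufsp2, which was at 104 TPM with Klf4 and 28.3 TPM in MigRI, and reads of such genes on opposite strands cannot be told apart, since the kit does not mark strand. Exons of Tpi1, Hif1a, Gapdh, Pfkp and Pfkm also overlap a gene on the other strand that reached 1 TPM in a library, the highest beside Tpi1 being Spsb2 at 41.5 TPM with Klf4 and 6.97 TPM in MigRI.

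Slc2a1, Gpi1, Tpi1, Gapdh, Pgam1, Ldha and Bnip3 were called higher in both comparisons. These 7 genes are 35.0% of the 20 called in the gain comparison and 63.6% of the 11 called in the loss comparison. With 20 and 11 of the same 33 genes called, about as many shared genes follow from these counts alone. The percentages below for all measured genes rest on lower call rates, so they do not show a shared set here. Of all measured genes, 404 were called higher in both, 15.01% of the 2691 called in the gain comparison and 25.9% of the 1560 called in the loss comparison. Higd1a was the 1 gene of the 33 called lower in both, where 1190 of all 12570 measured genes were.

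Relative differences also varied with the level and the length of transcripts. Among the 1451 genes averaging 100 TPM or more, the median relative difference was -1.09 log2 in the gain and 0.30 log2 in the loss comparison, and 9.37% and 25.5% were called higher. The 13 genes described here at that level had medians of 1.18 and 1.23 log2, and 8 and 9 of them were called higher. Genes whose longest transcript is under 1000 nucleotides took 21.7% of all TPM with Klf4 and 38.8% in MigRI, and 41.3% in the Klf4 cKO-labelled library and 54.9% in control. Their median relative differences were -1.13 and -0.47 log2. Ankrd37 is the 1 gene of the 34 in that class. Against genes of their own length class, 17 of 33 were called higher in the gain and 7 of 33 in the loss comparison. How many of all measured genes are called with this centring was not counted, so these counts have no background beside them. The part of transcript length in these results was not tested.

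Other glycolysis and pyruvate genes were read from a list of 28, of which 14 were measured and 6 were listed at 0 in all 4 libraries. In the gain comparison 6 of 14 were called higher and 3 lower, with a median of 0.72 log2, and in the loss comparison 3 were higher and 1 lower, with a median of 0.40 log2. Ldhb, the heart-type lactate dehydrogenase, was at 226 TPM with Klf4 and 38.3 TPM in MigRI, 1.74 log2. Hk3, a hexokinase typical of myeloid cells, was at 14.98 TPM with Klf4 and 0.926 TPM in MigRI, 2.26 log2. Eno3, the muscle enolase, was at 82.0 TPM with Klf4 and 259 TPM in MigRI, -2.44 log2. Mpc2, a subunit of the mitochondrial pyruvate carrier, was at 131 TPM with Klf4 and 425 TPM in MigRI, -2.49 log2, and at 290 TPM in the Klf4 cKO-labelled library and 401 TPM in control, -1.21 log2.

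In the loss comparison, Pdk3, a pyruvate dehydrogenase kinase, was at 27.2 TPM in the Klf4 cKO-labelled library and 4.24 TPM in control, 1.69 log2. Bsg, the chaperone that carries lactate transporters to the membrane, was at 560 TPM in the Klf4 cKO-labelled library and 141 TPM in control, 1.25 log2. Pdhb, a subunit of pyruvate dehydrogenase, was at 94.1 TPM in the Klf4 cKO-labelled library and 22.6 TPM in control, 1.27 log2.

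Of 40 other HIF pathway and target genes, 34 were measured. For Klf4-transduced over MigRI, 18 of 34 were called higher and 3 lower, with a median of 1.06 log2, and for the Klf4 cKO-labelled library over control 6 were higher and 2 lower, with a median of 0.09 log2. Car9, the carbonic anhydrase best known as a hypoxia marker of tumour cells, was at 109 TPM with Klf4 and 6.89 TPM in MigRI, 3.01 log2, and at 11.3 TPM in the Klf4 cKO-labelled library and 0.883 TPM in control, 1.97 log2. Hmox1, heme oxygenase, was at 174 TPM with Klf4 and 10.6 TPM in MigRI, 3.13 log2, and at 22.6 TPM in the Klf4 cKO-labelled library and 1.97 TPM in control, 2.25 log2. The collagen-modifying enzymes Plod1 and P4ha2 had relative differences of 3.25 and 2.89 log2 in the gain comparison.

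Mif and Hilpda, of the same list, were lower in the gain comparison relative to the median gene. Their longest transcripts have 600 and 982 nucleotides, and measured genes under 1000 nucleotides had a median of -1.13 log2 there. With Trac, Trbc1 and Trbc2 as the zero point, each gain value rises by 2.81 log2, and both genes turn higher. The part of transcript length was not tested. Mif, a cytokine, was at 2485 TPM with Klf4 and 3367 TPM in MigRI, -1.23 log2, and at 2817 TPM in the Klf4 cKO-labelled library and 4204 TPM in control, -1.31 log2. Hilpda, a lipid droplet protein, was at 419 TPM with Klf4 and 542 TPM in MigRI, -1.16 log2, but at 845 TPM in the Klf4 cKO-labelled library and 202 TPM in control, 1.32 log2.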

How the data were processed

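RNA of 4 libraries was taken up in TRI Reagent and made into libraries with the SMART-seq v4 kit, per the labels' protocols. The submitters' processing notes name Trimmomatic, HISAT2, StringTie and edgeR with mm10, while their versions and roles, and the annotation, were not stated. The authors deposited gene-level TPM values, 1 table per library. TPM keeps no depth, and abundant short transcripts lower every other value. An exact 0 may be a failed estimate. In the control table, symbols of 26 genes had become dates: 22 were mapped back by name and 4 genes were left out of all libraries, none of them among the 34 genes.

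Differences were taken with Python 3.11.15 and pandas 2.3.3 within an experiment as log2(TPM + 1), as deposited and minus the median over the 12570 genes averaging 1 TPM or more. A difference of at least 1 log2 was called, and the code was tested on simulated data. No test across genes is possible with single libraries. Lengths and exons came from GENCODE vM21 on GRCm38, the longest transcript per gene (11761 measured genes, 93.6%). Windows before start sites came from RefSeq on GRCm38.p6.

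All 34 genes are named. Of each further pathway list, the 4 genes with the largest absolute relative difference per comparison among those reaching 10 TPM in either library were eligible, and some are given. Of each cell marker list the 2 most abundant were eligible, with markers at 0 in all libraries. Copies were named at 1 TPM or more. Genes and lists were chosen with earlier results of these data known. Alternatives were pseudocounts of 0.1 and 5, no filter, a filter of 10 TPM on the mean, no centring, median of ratios, quantile normalization, and centring on Trac, Trbc1 and Trbc2 or on long coding genes. Centring by length class and adding copies were chosen after seeing the data.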

Additional observations from a re-analysis of the deposited data

How the results depend on the processing

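No paired analysis was possible because each group held 1 library, and leaving out a library leaves no comparison. In the gain comparison, the number of the 33 genes called higher was 15 to 29 of those measured under every alternative except centring on Trac, Trbc1 and Trbc2, where it was 33 in place of 20. That centring moves every measured gene by the same amount. Quantile normalization moved the glycolytic median there to 2.01 log2 and the other HIF-response median to 1.04 log2. The glycolytic median went below 2-fold under median of ratios scaling (0.94 log2) and when centred on coding genes of at least 1000 nucleotides (0.85 log2). The other HIF-response median was 1.09 and 1.03 log2 under these settings. Centred on the receptor genes, Slc2a3 and Higd1a turned from lower to higher, at 1.36 and 1.21 log2. Shares of all measured genes called were counted only for the main setting and without centring, so the other counts have no background beside them. In the loss comparison, 11 genes called higher became 21 without centring or without the filter, and 4 of the 24 left by a filter of 10 TPM. They became 7 against genes of the same length class and 0 when centred on the receptor genes. The glycolytic median there was 1.57 log2 without centring and 1.48 log2 without the filter. The other HIF-response median there was -0.36 log2 with the 10 TPM filter, which left 9 of those genes. Without the filter the median over all genes is that of mostly unexpressed genes. The cause of the other shifts was not tested. Over single genes, 581 of 710 values kept direction and side of the 2-fold limit or their place inside it. A value that stayed inside 2-fold counts as kept even where its direction turned, as for Hif1a. The settings without the filter and without centring gave the same differences, and adding copies left genes without copies at their main values. The count is thus partly fixed in advance and does not measure how stable the values are. Depth is unknown for TPM, so values of a few TPM, such as those of Pfkfb4 and Adm, have an unknown counting error.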

Other observations

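Branches off glycolysis and the cycle that burns pyruvate were also read. Of 15 genes of the pentose phosphate and serine branches, 14 were measured. In the gain comparison 5 were called higher and 1 lower, with a median relative difference of 0.51 log2, and in the loss comparison 4 were called higher and 0 lower, with a median of 0.57 log2. G6pdx, the entry enzyme of the pentose phosphate pathway, was at 53.5 TPM with Klf4 and 6.19 TPM in MigRI, 2.13 log2, and at 10.5 TPM in the Klf4 cKO-labelled library and 1.87 TPM in control, 1.26 log2. Psat1, of serine synthesis, was at 188 TPM with Klf4 and 35.4 TPM in MigRI, 1.58 log2, and at 25.1 TPM in the Klf4 cKO-labelled library and 5.74 TPM in control, 1.21 log2.

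All 18 genes of the tricarboxylic acid cycle were measured. For Klf4-transduced over MigRI 5 were called higher and 1 lower, with a median relative difference of 0.57 log2. For the Klf4 cKO-labelled library over control 12 were called higher and 0 lower, with a median of 1.07 log2, beside 9 of 21 and 0.83 log2 for the glycolytic genes. Idh2, the mitochondrial isocitrate dehydrogenase, was at 198 TPM with Klf4 and 15.2 TPM in MigRI, 2.83 log2, and at 19.8 TPM in the Klf4 cKO-labelled library and 3.13 TPM in control, 1.59 log2. Idh3g, a subunit of the cycle's own isocitrate dehydrogenase, was at 114 TPM in the Klf4 cKO-labelled library and 18.1 TPM in control, 1.85 log2. Centred on Trac, Trbc1 and Trbc2, each loss value here is lower by 1.02 log2. The values of other cell type markers given with the glycolytic genes stand beside these as well, and their part was not tested.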
